A study of Bombyx mori with 4 samples.

Results

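The silkworm array carried 13 probes for small heat shock proteins among its 23229 gene probes. They were 3 listed probes (sw01265, sw13175 and sw15945) and every gene probe whose annotation names an Hsp of 19 to 27 kDa, a small heat shock protein or an alpha-crystallin. Of these, 7 carry a silkworm gene number, and all 7 were found in the RefSeq gene table of assembly ASM3026992v2. For sw18670, 1 of its 2 gene numbers was found there, that of Hsp20.4. The other 6 are named only by the protein they match best, and they are called matches here. A further match in the range of 19 to 27 kDa (sw09447) is worded differently and was not counted among the 13.

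Small heat shock proteins are a family of chaperones that share the alpha-crystallin domain. They assemble into oligomers, bind unfolding proteins without using ATP and hold them until the ATP-dependent chaperones of the Hsp70 and Hsp90 families refold them. Many of their genes are switched on strongly by heat and other protein stress, others are expressed without stress, and the number in each name is the approximate mass of the protein.

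The RNA came from BmN4-SID1 cells, a silkworm line of ovarian origin engineered to import double-stranded RNA added to its medium. The tested cells received dsRNA against BmSCE (the RING subunit of the Polycomb complex PRC1), BmESC (the WD40 subunit of the histone methyltransferase complex PRC2), BmPHO (a DNA-binding zinc finger protein of the Polycomb group) or BmSCM (a Polycomb group protein with a SAM domain), and the control cells received dsRNA against EGFP. All cells were harvested on day 7, and the RNA of 3 experiments was pooled for each treatment. Each knockdown was hybridized once, labelled with Cy5, against EGFP RNAi labelled with Cy3, with no dye swap, so the spread between replicates is unknown and no difference below was tested. The knockdowns also share EGFP RNAi as their control, and their ratios are therefore not independent of each other.

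A probe was taken as measured where its spot passed the deposited flag, which means that the brighter channel reached 400 intensity units. Ratios are given as the log2 of knockdown over EGFP RNAi after the dye trend with brightness was removed within the array, so the sign can differ from that of the raw intensities of a dim spot. Rose and fell mean past 2.0-fold. As a guide to technical error only, 5 silkworm control probes printed 49 times each had a median SD of log2 ratios of 0.14 on the BmSCE array, 0.25 on the BmESC array, 0.10 on the BmPHO array and 0.09 on the BmSCM array. Measured gene probes numbered 7833, 9869, 7434 and 8310 on these arrays in the same order, and 6491 were measured on all of them. The match to extra sex combs (sw12637) read -2.61 in BmESC RNAi and -0.68 to 0.13 in the other knockdowns, and the loss of BmSCE, BmPHO or BmSCM was not checked on the arrays here. By RT-PCR, the study reported that each targeted gene was reduced after its dsRNA. Of 6 germ line probes, 2 to 3 were measured on an array, with the annotated piwi (sw00065) and aubergine (sw10899) on all of them, none of 10 fat body probes was measured on any, and 4 to 5 of 12 haemocyte probes and 1 to 2 of 7 silk gland probes were. The yeast spike-in controls had median log2 ratios of 1.24 on the BmSCE, 1.16 on the BmESC, 4.01 on the BmPHO and 3.27 on the BmSCM array, and their part in the differences between arrays was not tested. In RNA of whole cultures, a change in the share of cells that express a gene and a change in RNA per cell cannot be told apart.

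The small heat shock probes lay high in BmSCE RNAi and low in BmESC RNAi. In BmSCE RNAi, 5 of 10 measured members rose and none fell, where 2.43% of all measured probes rose and 1.10% fell. Their median log2 ratio was 0.83, beside 0.02 over all probes. Of the 5, Hsp20.4 and Hsp20.8 passed the flag on this array through the knockdown channel alone, and with both channels at 400 or more, 3 of 8 rose and the median was 0.50. In BmESC RNAi, 3 of 9 fell and none rose, where 3.25% of all measured probes fell and 4.46% rose, and the median was -0.80, beside 0.02. BmPHO RNAi had 2 of 8 risen and 1 fallen, where 11.8% of all probes rose and 7.82% fell, with a median of 0.12 beside 0.05. BmSCM RNAi had 1 of 9 risen and 1 fallen, where 9.46% rose and 6.29% fell, with a median of 0.22 beside 0.07. With so few members, the BmPHO and BmSCM counts are each 1 or 2 probes.

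**Figure D1:**
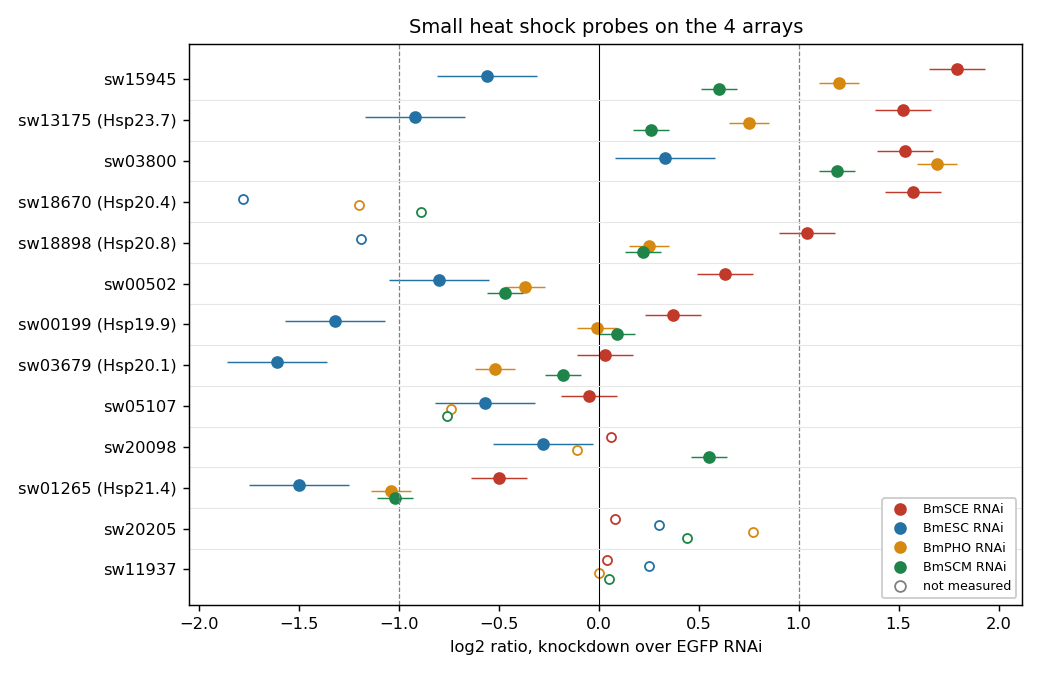
Log2 ratio of knockdown over EGFP RNAi (x axis) for the 13 small heat shock probes (rows) on the 4 arrays. Filled points are measured spots, with bars of 1 median SD of the control probes on that array, open points are not measured, and dashed lines mark 2-fold. The BmESC point is the lowest filled point of each of the 7 probes measured on all arrays.

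Hsp23.7 (sw13175), a small heat shock protein with its own gene number, showed the widest spread. Its intensity was 8921 in BmSCE RNAi against 2664 in EGFP RNAi, 1797 in BmESC RNAi against 2596, 3803 in BmPHO RNAi against 2231, and 3522 in BmSCM RNAi against 2584. The log2 ratios were 1.52, -0.92, 0.75 and 0.26 in the same order. It rose in BmSCE RNAi only, by 2.87-fold, and was 1.89-fold lower in BmESC RNAi than in EGFP RNAi, which is just short of the threshold. The EGFP RNAi spots of Hsp23.7 were nearly level across the arrays: relative to the median of all probes measured on every array, they spanned 0.30 on the log2 scale, while the knockdown spots spanned 2.49. Over all probes, the median span was 0.38 in the EGFP RNAi channel and 0.77 in the knockdown channel.

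The match to hsp20.1 (sw15945) had the highest ratio of any member in BmSCE RNAi, though not under every processing. Its intensity was 4264 in BmSCE RNAi against 1070 in EGFP RNAi, 968 in BmESC RNAi against 1114, 1094 in BmPHO RNAi against 419, and 2030 in BmSCM RNAi against 1044. The log2 ratios were 1.79, -0.56, 1.20 and 0.60, so it rose 3.45-fold in BmSCE RNAi and 2.3-fold in BmPHO RNAi. The BmPHO rise goes with a dim EGFP RNAi spot: that spot lay at -1.75 relative to the array median, against -0.52 to -0.34 on the other arrays, and the knockdown spot lay at -0.49, against 0.27 in BmSCM RNAi. The BmPHO ratio was 0.91 with the dye trend fitted in each print block and 0.65 in the deposited ratio column, both within 2-fold. The BmSCE ratio was 1.6 and 1.15 in these 2 settings, both past 2-fold, where sw03800 was higher (1.63 and 1.77).

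Hsp21.4 (sw01265), a further member with its own gene number, was below EGFP RNAi on every array. Its intensity was 10551 in BmSCE RNAi against 12366 in EGFP RNAi, 7018 in BmESC RNAi against 15120, 6651 in BmPHO RNAi against 14108, and 5754 in BmSCM RNAi against 11417. The log2 ratios were -0.50, -1.50, -1.04 and -1.02. It fell 2.83-fold in BmESC RNAi, and it passed the threshold narrowly in BmPHO RNAi (2.06-fold lower) and BmSCM RNAi (2.03-fold lower, -1.0 and no longer past 2-fold with the dye trend fitted in each print block). It was the only member that fell in more than 1 knockdown.

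Hsp19.9 (sw00199), the smallest of the named proteins by mass, had 21645 in BmSCE RNAi against 13743 in EGFP RNAi, 9987 in BmESC RNAi against 18950, 16909 in BmPHO RNAi against 17814, and 17578 in BmSCM RNAi against 17299. It fell 2.50-fold in BmESC RNAi (log2 ratio -1.32) and stayed within 2-fold in BmSCE (0.37), BmPHO (-0.01) and BmSCM RNAi (0.09). Hsp20.1 (sw03679), a small heat shock protein whose name sw15945 also matches, had 12126 in BmSCE RNAi against 9910 in EGFP RNAi, 4917 in BmESC RNAi against 11448, 6184 in BmPHO RNAi against 9094, and 7343 in BmSCM RNAi against 8115. It fell 3.04-fold in BmESC RNAi (-1.61), and its other log2 ratios were 0.03, -0.52 and -0.18. For both genes the BmESC array alone passed 2-fold.

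The match to hsp20.8 of the moth Sesamia nonagrioides (sw03800) was the only one of the 7 members measured on all arrays that lay above EGFP RNAi on each. Its intensity was 1820 in BmSCE RNAi against 543 in EGFP RNAi, 1098 in BmESC RNAi against 687, 2062 in BmPHO RNAi against 586, and 1720 in BmSCM RNAi against 546. It rose in BmSCE (1.53), BmPHO (1.69) and BmSCM RNAi (1.19) and was within 2-fold in BmESC RNAi (0.33). This probe belongs to the genes that the study listed as raised in both BmPHO and BmSCM RNAi from these same arrays, so its rise there is not independent of that choice.

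**Figure D2:**
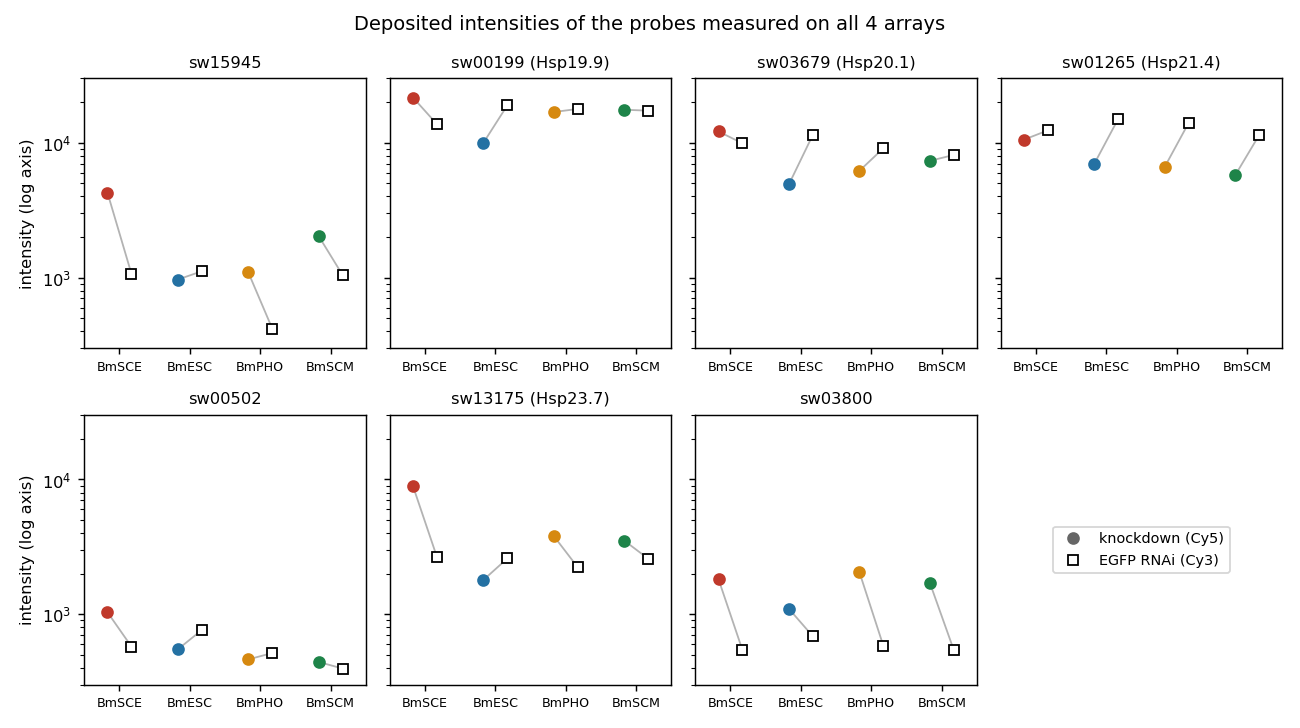
Deposited intensity (log axis) of the 7 small heat shock probes measured on all arrays. Filled points are the knockdown channel and open squares the EGFP RNAi channel of the same array. Hsp23.7 reached 8921 in BmSCE RNAi and 1797 in BmESC RNAi, with EGFP RNAi between 2231 and 2664.

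The remaining members stayed near or under the flag on some arrays. Hsp20.4 (sw18670), whose annotation also names an alpha-crystallin, was measured on the BmSCE array alone, with 750 in BmSCE RNAi against 213 in EGFP RNAi, and rose there (1.57). On the other arrays both of its channels lay between 88 and 290, under the flag. Hsp20.8 (sw18898) had 769 in BmSCE RNAi against 318 in EGFP RNAi, where it rose narrowly (1.04, and 0.96 in the deposited ratio column). It was within 2-fold in BmPHO (0.25) and BmSCM RNAi (0.22), and it was not measured on the BmESC array, at 205 in BmESC RNAi against 389 in EGFP RNAi. Both rises rest on EGFP RNAi spots under 400.

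A second probe for Hsp19.9 by match (sw00502) had 1036 in BmSCE RNAi against 577 in EGFP RNAi, 550 in BmESC RNAi against 765, 463 in BmPHO RNAi against 516, and 443 in BmSCM RNAi against 396. Its log2 ratios were 0.63, -0.80, -0.37 and -0.47, all within 2-fold. A second match to hsp20.1 (sw05107) read -0.05 in BmSCE RNAi and -0.57 in BmESC RNAi and was not measured on the other arrays. LOC778468 (sw20098), annotated as heat shock protein 1 and matched to a small heat shock protein of the honey bee, read -0.28 in BmESC RNAi and 0.55 in BmSCM RNAi. A further match to hsp20.1 (sw20205) and a match to hsp20.8 (sw11937) were not measured on any array, with intensities of 47 to 275. The probe sw09447 matches a heat shock protein of the moth Plutella xylostella whose name gives a mass within 19 to 27 kDa. That name is worded in a way the naming rule does not take in, so the probe was not counted. Its log2 ratios were 1.21 in BmSCE RNAi, -0.17 in BmESC RNAi, 0.10 in BmPHO RNAi and -0.43 in BmSCM RNAi.

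The values nearest to the threshold were Hsp21.4 in BmSCM RNAi (-1.02) and BmPHO RNAi (-1.04) and Hsp20.8 in BmSCE RNAi (1.04) on its far side. Hsp23.7 in BmESC RNAi (-0.92), sw00502 in BmESC RNAi (-0.80) and Hsp23.7 in BmPHO RNAi (0.75) were the nearest on its near side. The counts of members called thus turn on a few ratios.

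Across the 7 members measured on all arrays, the order of the knockdowns was nearly the same. BmESC RNAi gave the lowest ratio for 7 of 7, where it did so for 24.3% of all probes, and BmSCE RNAi gave the highest for 6 of 7, where it did so for 28.0%. The exception was sw03800, which was highest in BmPHO RNAi, 0.16 above BmSCE RNAi, a gap close to the SD of control spots. The uncounted probe sw09447, measured on all arrays, was highest in BmSCE RNAi (1.21) but lowest in BmSCM RNAi (-0.43), with -0.17 in BmESC RNAi. The step from BmESC RNAi to the next knockdown was 1.31 for Hsp19.9, 1.18 for Hsp23.7, 1.17 for sw15945, 1.08 for Hsp20.1, 0.86 for sw03800, 0.46 for Hsp21.4 and 0.34 for sw00502, the last of these within the highest control SD of 0.42 on the BmESC array. BmPHO and BmSCM RNAi lay next to each other for 6 of the 7, 0.02 apart for Hsp21.4 and 0.60 apart for sw15945. The share of all probes for which they did was not counted, so this is not a result about the members.

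The members differed in how far they moved. The range of the log2 ratio over the arrays was 2.44 for Hsp23.7 and 2.35 for sw15945, at the 99.3 and 99.2 percentile of all probes measured on all arrays, and 1.00 for Hsp21.4, at the 76.6 percentile. Hsp19.9 had 1.69, Hsp20.1 had 1.63, sw00502 had 1.43 and sw03800 had 1.36, where the median probe had 0.68. Most of this lay in the knockdown channel, which also spanned more over all probes (median 0.77, beside 0.38 in the EGFP RNAi channel). Hsp21.4 was near those medians, with 0.78 and 0.31. The knockdown spots of Hsp20.1 spanned 1.48 on the log2 scale and its EGFP RNAi spots 0.30, and for sw03800 the spans were 1.31 and 0.36. The exceptions were sw15945, with 2.32 in the knockdown channel and 1.41 in the EGFP RNAi channel, and sw00502, with 1.13 and 0.76.

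**Figure D3:**
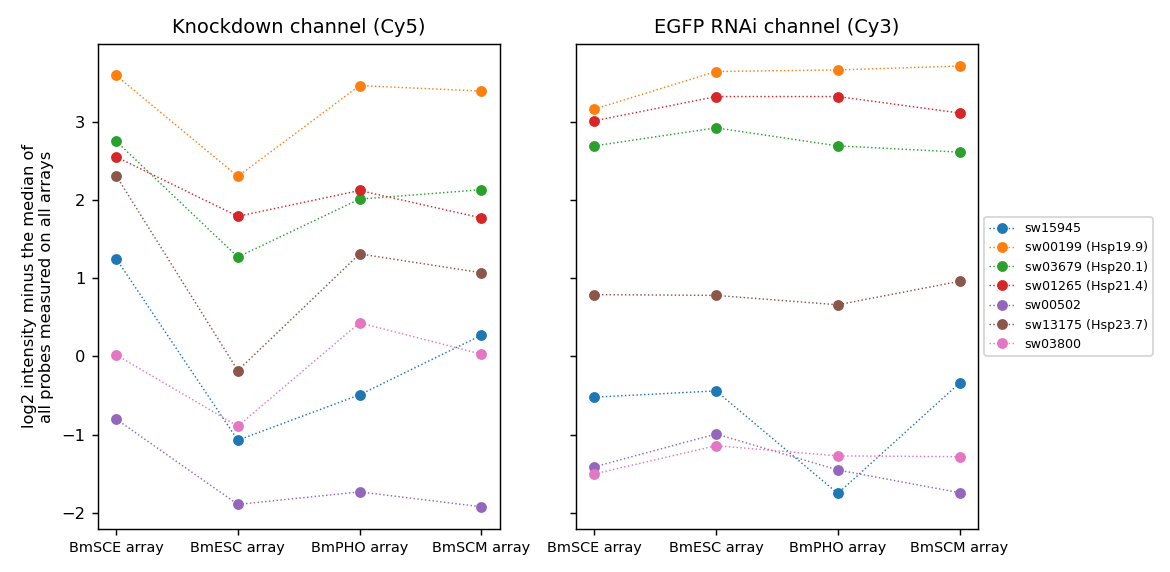
Log2 intensity of the 7 small heat shock probes relative to the median of all probes measured on all arrays (y axis), for the knockdown channel (left) and the EGFP RNAi channel (right) of each array; dotted lines only join the points of a probe. In the knockdown channel BmESC RNAi is the lowest point for 5 of the 7, while Hsp21.4 (1.77) and sw00502 (-1.92) are lowest in BmSCM RNAi by a small step. In the EGFP RNAi channel sw15945 (1.41) and sw00502 (0.76) have the widest spans.

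Set side by side, BmSCE RNAi was above BmESC RNAi for 8 of the 8 members measured on both arrays, and by more than 2-fold for 7, where 51.4% and 1.84% of all probes were. The difference ran from 0.52 for sw05107 to 2.44 (5.41-fold) for Hsp23.7, with a median of 1.53 over the members and 0.01 over all probes. For Hsp21.4 it was 1.00, at the threshold itself. BmESC RNAi was more than 2-fold below BmPHO RNAi for 5 of 7 members and below BmSCM RNAi for 4 of 8, where 5.54% and 5.02% of all probes were, with medians of -1.31 and -1.01. BmSCE RNAi was more than 2-fold above BmSCM RNAi for 3 of 8 members (sw15945, sw00502 and Hsp23.7), where 4.23% of all probes were, and above BmPHO RNAi for 0 of 8, where 4.70% were. BmPHO and BmSCM RNAi differed by more than 2-fold for none of 8 members, where 0.964% of all probes were higher and 1.12% lower in BmPHO RNAi, and their differences ran from -0.34 to 0.60.

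**Figure D4:**
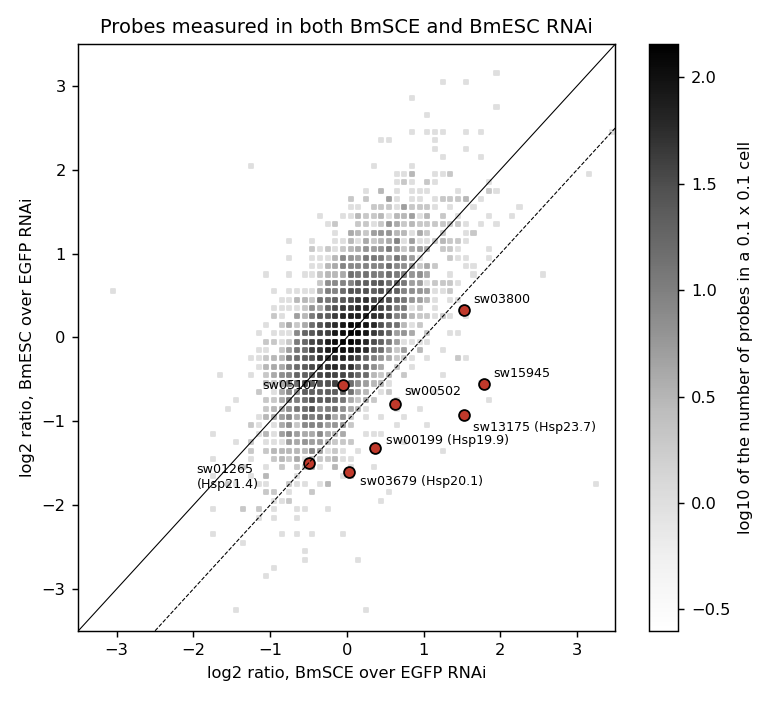
Log2 ratio over EGFP RNAi in BmSCE RNAi (x axis) and in BmESC RNAi (y axis). Grey squares count the probes measured on both arrays within the plotted range, red points are 8 small heat shock probes, the solid line marks equal ratios and the dashed line a 2-fold difference. The 8 members lie below the solid line, 7 of them at or past the dashed line.

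In the gene table, 5 of the 7 genes with a number lie on 1 chromosome, in 2 groups with 129 to 134 genes between them. Hsp23.7 and Hsp20.1 are neighbours with no gene between them. Their ratios differed on every array nevertheless, with Hsp23.7 above Hsp20.1 by 1.49 in BmSCE RNAi, by 0.69 in BmESC RNAi, by 1.27 in BmPHO RNAi and by 0.44 in BmSCM RNAi. Hsp20.4 and Hsp20.8 are neighbours too, and 2 genes lie between Hsp19.9 and Hsp20.8. The gene model number of sw05107 in the array annotation (Bmb002838) falls between those of Hsp19.9 and Hsp20.8 (Bmb002837 and Bmb002839). This probe has no gene number, so its position was not looked up in the gene table. On the 1 array where both were measured, BmSCE, the ratio of Hsp20.4 was 0.53 above that of Hsp20.8. No member has an entry for cross-hybridization in the array annotation, which lists 29 such gene probes. Since several probes match the same protein, whether a probe also reads a related transcript was not tested.

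Few probes followed Hsp23.7 or sw15945 closely, within the family or outside it. Likeness was taken as the Euclidean distance over the 4 log2 ratios, among 5068 named probes measured on all arrays. The nearest to Hsp23.7 was sw15945 itself, at 0.72, and the nearest other probe was sw10856, named for its likeness to a choline transporter, at 0.92, with log2 ratios of 1.87, -0.78, 1.58 and 0.31. It was also the nearest to sw15945, at 0.53. The next for Hsp23.7 were sw14294 (0.97, a match to a repeat protein of Tetrahymena) and sw02262 (0.98, a match to a myosin regulatory light chain interacting protein), and for sw15945 they were sw10704 (1.01, a match to the LIM-only protein DALP of Manduca sexta) and sw20237 (1.04, a match to annulin, a transglutaminase). Apart from Hsp23.7 and sw15945, the members measured on all arrays lay 1.45 to 3.04 from Hsp23.7 and 1.2 to 3.71 from sw15945. The probes named from outside the family are the nearest of 5068, so their smaller distances are not a result about the members. Neither Hsp23.7 nor sw15945 had a named probe within 0.5, a count that was not compared with probes of a like range. Hsp21.4 had 45 within that distance, led by LOC733126 (sw14136, 0.23), annotated as a transmembrane emp24 transport protein, sw02925 (0.24, a match to microtubule-associated protein tau) and sw05030 (0.25, a match to a coiled-coil-helix domain protein).

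Other heat shock response probes were counted in the same way, a label used here for a list drawn by words in the annotation. It includes many DnaJ proteins, cognates and cochaperones. Whether heat induces these genes was not tested, so the list is not a readout of a heat shock response. Among 45 other probes for Hsp40, Hsp60, Hsp70 and Hsp90 proteins, their cochaperones and cognates, none of 34 measured rose in BmSCE RNAi and 3 fell, with a median of -0.30, where 2.43% of all probes rose and 1.10% fell. At such a share of risen probes, a count of 0 among 34 is not a result about the list. In BmESC RNAi 7 of 37 fell and none rose (median -0.55), where 3.25% fell and 4.46% rose. In BmPHO RNAi 3 of 33 rose and none fell (-0.19), which is 9.09% risen beside 11.8% of all probes. In BmSCM RNAi 1 of 33 rose and 2 fell (-0.35), where 9.46% rose and 6.29% fell. BmSCE RNAi was more than 2-fold above BmESC RNAi for 3 of these 34 probes, where 1.84% of all probes were, with a median difference of 0.14.

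Hsp90 (sw01900), an ATP-dependent chaperone of kinases and receptors, fell in both BmSCE (-1.06) and BmESC RNAi (-2.84) and read -0.83 in BmPHO and -0.35 in BmSCM RNAi. LOC692373 (sw08198), a cognate of the Hsp70 family, fell in BmSCE (-1.07) and BmESC RNAi (-1.86), with -0.73 in BmPHO and -1.0 in BmSCM RNAi. LOC692990 (sw15970), a DnaJ protein of the type that brings substrates to Hsp70, fell in BmESC RNAi (-1.35) and lay at the threshold in BmSCE RNAi (-1.0). Hsp90 and these partners were thus on opposite sides of EGFP RNAi from Hsp23.7 in BmSCE RNAi and on the same side in BmESC RNAi. The other probe named by the same rule (sw12462) went the other way, above EGFP RNAi in both (0.70 and 0.36). Of the whole list, 7 of 34 measured probes lay above EGFP RNAi in BmSCE RNAi and 9 of 37 in BmESC RNAi.

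A match to another Hsp70 cognate (sw12462) read 0.70 in BmSCE RNAi, 0.36 in BmESC RNAi, 3.02 in BmPHO RNAi and 2.65 in BmSCM RNAi. A second probe with that best match (sw09458) read 0.67, 0.63, 1.25 and 0.90 in the same order, past 2-fold in BmPHO RNAi only. Among the small heat shock probes measured on all arrays, sw03800 alone was likewise highest in BmPHO RNAi. Hsp70 itself is the chaperone that refolds clients handed over by the small heat shock proteins. Of its probes, singled out after their values were seen, sw22145 (-2.39) and sw22585 (-3.23) fell in BmESC RNAi alone and read -0.03 to 0.70 on the other arrays. Another probe with the same best match (sw04220) read -0.08 in BmESC RNAi, and a match to Hsp70 of a midge (sw01128) read -0.16, and neither was measured on any other array.

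**Figure D5:**
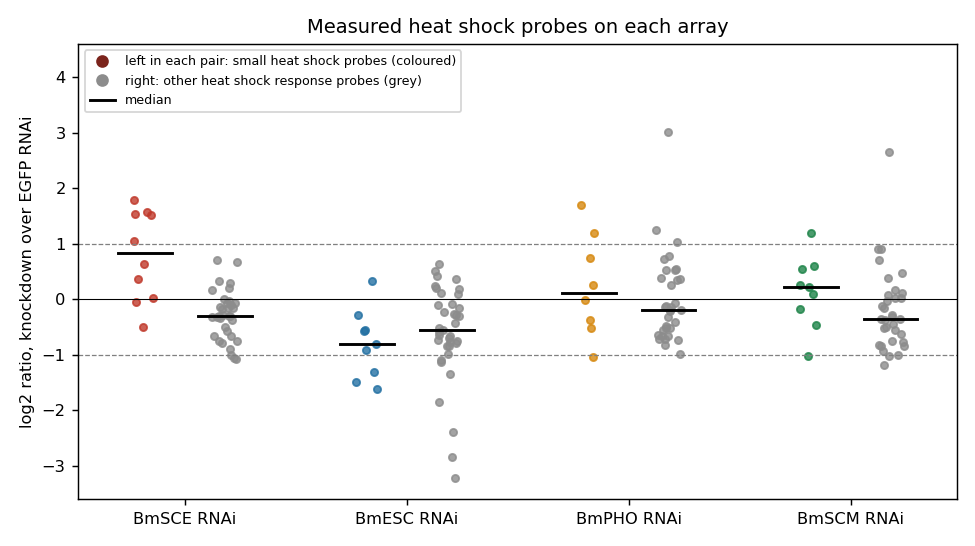
Log2 ratio over EGFP RNAi (y axis) of measured probes on each array: small heat shock probes coloured at the left of each pair, other heat shock response probes grey at the right, with the median as a bar and 2-fold as dashed lines. In BmSCE RNAi the medians were 0.83 and -0.30, and in BmESC RNAi -0.80 and -0.55.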

How the data were processed

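The deposited intensity columns of each array held Cy5 and Cy3 values from which the authors had already subtracted the background. The deposited ratio column was Cy5 over Cy3 after a normalization by the authors, its method not given in the sources used here, and the series table held its log2, as deposited. Here, intensities under 100 were set to 100, and log2 ratios were normalized within each array with limma 3.58.1 (loess, span 0.3, 4 iterations, all gene probes) in R 4.3.3, with counts in Python 3.11.15. They correlated with the deposited log2 ratios at 0.961 to 0.971 over probes. The procedure was tested on simulated data in which a smaller share of probes was changed than passed 2-fold here. How it behaves where many probes change was not tested. The members and lists were chosen with earlier results of these data known. The genes named were every member, the 3 named probes nearest to each of sw01265, sw13175 and sw15945, and the heat shock response probes past 2-fold on 2 or more arrays. Outside this rule, sw09447, sw09458 and the Hsp70 probes were named after their values were seen, and the targeted gene's match and the germ line probes as checks. Alternatives numbered 8. The annotation of the members held no probe sequence here, and the gene table gave names and gene order only, with no coordinates printed, because no source used here names the build behind the array. The number of arrays, 1 per knockdown, limits the precision.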

Additional observations from a re-analysis of the deposited data

Results flagged for a closer look

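Members whose ratios lay on opposite sides of EGFP RNAi in a pair of knockdowns each by more than the highest control SD of its array, and more than 2-fold apart were singled out. With 1 array per knockdown, none of these differences was tested. Hsp23.7 (sw13175) differed by 2.44 on the log2 scale for BmSCE minus BmESC RNAi, by -1.66 for BmESC minus BmPHO RNAi and by -1.18 for BmESC minus BmSCM RNAi. For sw15945 the same differences were 2.35, -1.77 and -1.17, the middle one with the dim EGFP RNAi spot of the BmPHO array. Hsp19.9 (sw00199) differed by 1.69 for BmSCE minus BmESC RNAi. The match to Hsp19.9 (sw00502) differed by 1.43 for BmSCE minus BmESC RNAi and by 1.09 for BmSCE minus BmSCM RNAi. The second difference rests on dim BmSCM array spots, 443 in the knockdown against 396 in EGFP RNAi. That ratio was -0.47, and 0.16 with loess from bright spots, so its side of EGFP RNAi depends on the processing. No member passed 2-fold in opposite directions in 2 knockdowns. Over all probes measured on every array, 12 of 6491 (0.185%) did.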

How the results depend on the processing

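The 36 measured ratios of the members, 13 of them past 2-fold, were recomputed under 8 alternatives. No called ratio of a member changed sign. Median centring and floors of 50 and 200 kept every call. Print block loess lost 2 (sw15945 in BmPHO RNAi and Hsp21.4 in BmSCM RNAi), the deposited ratio lost 2 (sw15945 in BmPHO RNAi and Hsp20.8 in BmSCE RNAi), and loess from bright spots gained 1 (sw20098 in BmSCM RNAi, 1.24 against 0.55). The members more than 2-fold higher in BmSCE than in BmESC RNAi numbered 6 to 7 of 8 under each alternative that keeps EGFP RNAi as the control, Hsp21.4 being the one at the threshold.

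Requiring both channels at 400 leaves 3 members past 2-fold in BmSCE RNAi (median 0.50 over 8) and a BmPHO median of -0.01, because the probes dim in EGFP RNAi drop out. For BmSCM RNAi, print block loess gave 1 call and a median of 0.11, median centring a median of -0.01, and loess from bright spots 0.31. Set against the mean of the other 3 arrays in place of EGFP RNAi, over the 7 members measured on all arrays, BmSCE RNAi had 3 calls, BmESC RNAi 5 (median -1.38), BmPHO RNAi 0 (median 0.27) and BmSCM RNAi 0 (median -0.01). A shift that a probe shares across all arrays is removed by construction in that setting. Calls lost numbered 7 and calls gained 4. Hsp21.4 then read 0.69 in BmSCE RNAi and -0.65 in BmESC RNAi, and sw03800 became a call in BmESC RNAi (-1.14).

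For the other heat shock response probes, calls in BmSCE RNAi fell to 1 under print block loess and 1 in the deposited ratio. In BmSCM RNAi they numbered 8 under median centring and 5 with the floor of 200. Medians were -0.32 in BmPHO and -0.52 in BmSCM RNAi under median centring, and -0.24 in BmSCM RNAi with loess from bright spots. Against the other arrays, the medians were 0.11 in BmSCE, -0.29 in BmESC (4 calls), 0.39 in BmPHO and 0.11 in BmSCM RNAi. In that setting Hsp90 (sw01900) in BmSCE RNAi read 0.28, LOC692373 (sw08198) in BmSCE RNAi 0.13 and sw02925 in BmSCM RNAi 0.05, each turned in sign. The cause of the other changes was not tested.

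No paired analysis was possible because each knockdown has 1 array. Without replicates or a dye swap, a dye effect of a probe and a change cannot be told apart in a single ratio. A dye effect that is the same on every array drops out of the differences between knockdowns. Spots under 400 limit what can be read for Hsp20.4 and Hsp20.8.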
